A study of Mus musculus with 45 samples.

Results

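The Cables proteins, the G1 cyclins and the cyclin-dependent kinases that pair with them were examined in the kidney tubules of mice that had lost polycystin-1. The 10 genes are Cables1 and Cables2, the kinases Cdk2, Cdk4, Cdk5 and Cdk6, the D-type cyclins Ccnd1, Ccnd2 and Ccnd3, and the E-type cyclin Ccne1, out of 55401 genes with counts. The list was chosen by the level of Cables2, which was higher in every Pkd1KO mouse than in the mice of the other genotypes of its sex. The levels of Cables2 in comparisons of Pkd1KO mice are therefore given as a description with no test. The other 9 genes were added for what they do, but with earlier results of these data known. Counts of them beside the share over all genes are therefore a description too. All 10 were present in the deposited tables of both sexes, none was at 0 in any mouse, and all 10 passed the filter on low counts in males and in females.

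Translating ribosome affinity purification (TRAP) RNASeq was performed on kidneys of 45 mice, each sample being 1 mouse at 7 weeks of age (postnatal day 49), after doxycycline from postnatal day 28 to 42 and before cysts had formed. Noncystic mice were Pkd1fl/+, Pkd1KO mice were Pkd1fl/fl, and Pkd1KO+ciliaKO mice were Pkd1fl/fl; Kif3afl/fl, so that they lost cilia together with polycystin-1. All of them, controls included, were hemizygous for R26Rpl10a, Pax8rtTA and TetOCre and received doxycycline. The noncystic mice, which the labels call WT, thus carried 1 floxed Pkd1 allele and Cre. Cre was limited to the tubule cells in which Pax8 drives the transactivator, and the EGFP-tagged ribosomal protein L10a was made where Cre had been active. Of the males, 8 were noncystic, 7 were Pkd1KO and 9 were Pkd1KO+ciliaKO, and of the females 7, 8 and 6. The 7 markers of the proximal tubule summed to between 4578 and 11063 CPM (counts scaled by library size) in every mouse and none of them was at 0. Whole kidney RNA would hold them too, so they do not show that the RNA came from tubule cells alone. Markers of other cells were also found. Their sums were 199 to 1109 CPM for fibroblasts and pericytes, 73.5 to 402 CPM for endothelium and 39.8 to 173 CPM for podocytes.

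Progress from G1 into S phase is driven by D-type cyclins bound to Cdk4 or Cdk6 and by cyclin E bound to Cdk2, which phosphorylate the retinoblastoma family of pocket proteins and so release E2F transcription factors. Cdk5 is an atypical member of the kinase family that is activated by non-cyclin partners and is best known from neurons. Cables1 and Cables2 (Cdk5 and Abl enzyme substrate) are adaptor proteins with a cyclin box-like domain that bind cyclin-dependent kinases, and Cables1 is known to favour the inhibitory phosphorylation of Cdk2 by Wee1. In polycystic kidneys the growth of cysts goes with the division of tubule cells.

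Levels of a gene are given as CPM after TMM scaling across the 45 mice, and levels of different genes are compared only as TPM, which is also corrected for the length of the gene. The total of the gene counts of a mouse lay between 80874556 and 132958186, so that a floor of 3 counts corresponds to 0.0226 to 0.0371 CPM. The fewest fragments for any of the 10 genes in any mouse were the 52 of Ccne1, and the most were the 50913 of Ccnd1. The targeted gene Kif3a was at 4.84 to 7.36 CPM in male Pkd1KO+ciliaKO mice against 13.6 to 25.2 CPM in male noncystic and 21.4 to 28.9 CPM in male Pkd1KO mice. In females Pkd1KO+ciliaKO replicate 6 was at 20.5 CPM while the other 5 were at 6.49 to 8.38 CPM, and noncystic replicate 5 was at 6.61 CPM while the other 6 were at 23.0 to 25.1 CPM, so that Kif3a went against the label of both libraries. On the first principal component of log2(TPM + 1), which held 42.3% of the variance and placed females at -38.4 to -12.9 and most males at 14.4 to 40.3, the libraries labelled male noncystic replicate 3 (-9.76), male Pkd1KO replicate 4 (-1.13) and male Pkd1KO+ciliaKO replicates 6 (-23.7) and 8 (-30.2) stood apart from the other males. Results are therefore also given without these 6 libraries, which are named below as the libraries that stood apart. The female ones are in this set for Kif3a alone, as on this component (-22.9 and -26.6) both lay among the other females. Of Pkd1 itself a few exons are deleted, so that counts over the whole gene do not check that label.

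Cables2 lies on the minus strand of chromosome 2 (GRCm38, chr2:180258540-180273496). Its start site region is shown because it holds a regular run of one motif. The 250 bases before the start site, in the RefSeq table for GRCm38.p6 and read 5′ to 3′ on the strand of the gene, held 5 copies of CCAAT on that strand, which began at positions -232, -183, -134, -85 and -36 from the start, each 49 bases from the next. A unit of 98 bases that began at the first copy recurred directly after itself with 90 of the 98 bases identical (91.8%). Capitals mark CCAAT, the GC box GGGCGG and the octamer ATTTGCAT, all searched on both strands together with the E2F letters TTTGGCGC, TTTCCCGC and TTTCGCGC and the Gli letters GACCACCC. GGGCGG directly follows CCAAT in 2 of the 5 copies.
Cables2 (chr2:180273466-180273715, minus strand): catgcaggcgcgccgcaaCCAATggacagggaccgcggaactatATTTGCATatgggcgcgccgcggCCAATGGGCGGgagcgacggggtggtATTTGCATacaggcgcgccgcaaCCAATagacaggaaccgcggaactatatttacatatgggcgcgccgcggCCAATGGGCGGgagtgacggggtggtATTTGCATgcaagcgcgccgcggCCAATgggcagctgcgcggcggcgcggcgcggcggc

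At least 5 copies of CCAAT on the strand of the gene were found in 17 of the 32851 promoters of the table (0.0517%), and at least 5 copies over both strands in 89 (0.271%), each window reaching from 250 bases before to 50 bases after the start. Single motifs were less rare. CCAAT was found in 37.4% of the promoters, GGGCGG in 35.7%, the octamer in 1.74%, the E2F letters in 1.84% and the Gli letters in 0.807%. The octamer was found 3 times in the window of Cables2, and the E2F and Gli letters were not in it. Entries in this table were found for 6 of the 10 genes, namely Cables2, Cdk2, Cdk4, Cdk6, Ccnd3 and Ccne1, while Cables1, Cdk5, Ccnd1 and Ccnd2 are named only. Cdk2 was the one of these 6 with an E2F match, GCGGGAAA, which is the reverse complement of TTTCCCGC and begins at position -140 from the start, beside 1 CCAAT and 5 of the 6 GC boxes of its window.
Cdk2 (chr10:128705052-128705301, minus strand): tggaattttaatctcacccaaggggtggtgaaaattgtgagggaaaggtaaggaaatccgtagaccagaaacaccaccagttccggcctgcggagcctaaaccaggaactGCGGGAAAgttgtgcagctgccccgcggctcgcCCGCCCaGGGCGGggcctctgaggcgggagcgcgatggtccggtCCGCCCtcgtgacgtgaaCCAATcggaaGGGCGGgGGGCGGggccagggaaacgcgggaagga
Ccne1, the member with the widest range of levels among the mice, had 4 GC boxes in either direction and none of the other motifs.
Ccne1 (chr7:38107491-38107740, minus strand): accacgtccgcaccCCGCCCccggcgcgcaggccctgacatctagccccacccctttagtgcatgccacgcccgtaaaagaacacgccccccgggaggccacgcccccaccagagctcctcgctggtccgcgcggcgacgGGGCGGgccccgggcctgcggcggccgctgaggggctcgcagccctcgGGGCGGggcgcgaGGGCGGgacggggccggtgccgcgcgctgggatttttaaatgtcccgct
A match of letters is a description, and it does not show that a factor bound there.

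Cables2 was at 15.1, 19.2 and 23.6 CPM (lowest, median and highest) in male noncystic mice, at 36.4, 42.0 and 47.1 CPM in male Pkd1KO mice and at 21.8, 22.3 and 26.6 CPM in male Pkd1KO+ciliaKO mice. The values in females were 15.2, 21.2 and 24.95 CPM in noncystic, 37.4, 42.4 and 52.9 CPM in Pkd1KO and 21.1, 23.9 and 25.6 CPM in Pkd1KO+ciliaKO mice. The lowest Pkd1KO mouse of either sex was thus above the highest mouse of both other genotypes, while the noncystic and the Pkd1KO+ciliaKO mice overlapped. This is the pattern by which the list was chosen. The fold of Pkd1KO over noncystic mice was 2.20 in males and 2.07 in females. Over Pkd1KO+ciliaKO mice it was 1.82 in males and 1.85 in females. Both pairs of comparisons share the Pkd1KO mice. Without the 6 libraries the log2 differences were 1.19 and 1.09 against noncystic and 0.88 and 0.86 against Pkd1KO+ciliaKO mice, in males and females.

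**Figure D1:**
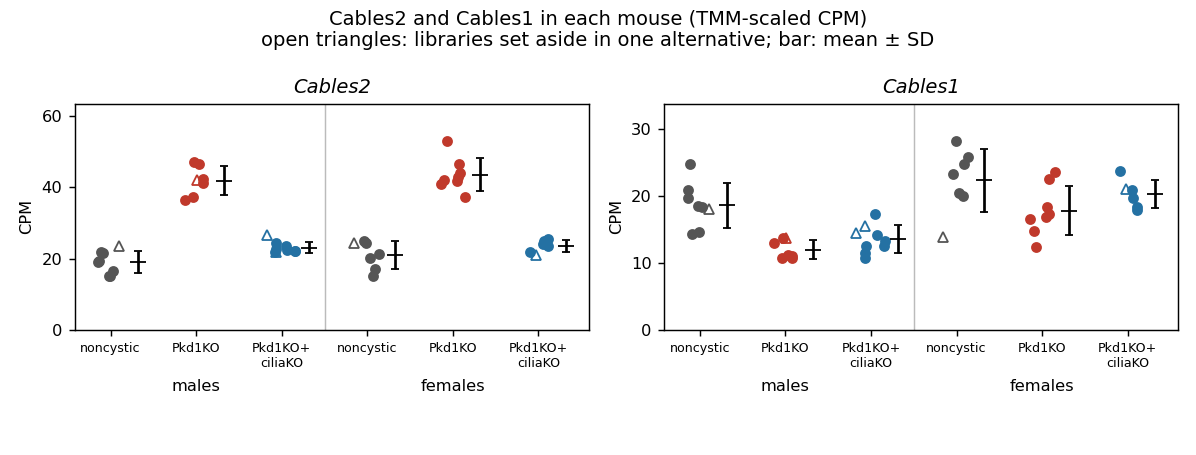
Levels of Cables1 and Cables2 (vertical axis, TMM-scaled CPM from 0) in each of the 45 mice by genotype and sex. The bar is the mean ± SD, and open triangles are the 6 libraries set aside for Kif3a or for the first principal component. Every Pkd1KO mouse lies at or above 36.4 CPM of Cables2 and every other mouse at or below 26.6 CPM, while Cables1 in male Pkd1KO mice (10.7 to 13.7 CPM) lies below all male noncystic mice (14.4 to 24.8 CPM).

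The comparison of Pkd1KO+ciliaKO with noncystic mice was not the contrast by which the list was chosen. In males Cables2 was 0.28 ± 0.09 higher on the log2 scale (SE, n = 9 and 8, edgeR quasi-likelihood adjusted p = 0.0517), which missed the threshold of 0.05, and the mice overlapped between 21.8 and 23.6 CPM. Without the libraries that stood apart the difference was 0.30 with an adjusted p of 0.0281, and it also passed when noncystic replicate 3 or noncystic replicate 8 alone was left out (lowest adjusted p = 0.0146 by edgeR). In females the difference was 0.16 ± 0.11 (adjusted p = 0.411), with an interval of -0.07 to 0.39. Between noncystic males and females Cables2 differed by -0.13 (interval -0.38 to 0.12, adjusted p = 0.462).

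No annotated gene overlaps Cables2, but the 3′ end of Rps21, which encodes a protein of the small ribosomal subunit, lies 95 bases from it on the opposite strand, and Rbbp8nl lies 4150 bases away on the other side. The option for strand in the counting was not stated. The log2 difference of Rps21 between Pkd1KO and noncystic mice was 0.16 ± 0.09 in males (adjusted p = 0.311) and -0.10 ± 0.08 in females (adjusted p = 0.591). Rbbp8nl differed by -0.48 ± 0.27 in males (adjusted p = 0.303) and -0.42 ± 0.26 in females (adjusted p = 0.484). Neither neighbour was called in any comparison of genotypes.

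The genes whose levels over the 45 mice, with the mean of each sex subtracted, were most like those of Cables2 were Glis2 (Pearson's r = 0.97, Spearman's rho = 0.94), Pkd2 (r = 0.91), Arpin (r = 0.91), Pam16 (r = 0.89) and Mettl2 (r = 0.89). Glis2 encodes a zinc finger transcription factor, Pkd2 encodes polycystin-2, the channel partner of polycystin-1, and Arpin encodes an inhibitor of the Arp2/3 complex. Glis2 and Pam16 both lie on chromosome 16. In male mice Glis2 was at 167 to 220 CPM in noncystic, 383 to 477 CPM in Pkd1KO and 218 to 271 CPM in Pkd1KO+ciliaKO mice. These values share their mice and libraries and are a description. Only the mean of each sex was subtracted, so the rise of Cables2 in Pkd1KO mice, which chose the list, enters each r. Among the other members Ccnd1 ranked 409 of 15827 genes (r = 0.56) and Ccne1 ranked 535 (r = 0.52), whereas Cables1 ranked 15549 (r = -0.55), near the opposite end. With the mean of each group of genotype and sex subtracted, r was 0.11 for Ccnd1, 0.06 for Ccne1 and -0.06 for Cables1.

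Cables1 (chr18:11839220-11945630, plus strand) went the other way in males. It was at 14.4, 18.4 and 24.8 CPM (lowest, median and highest) in male noncystic, at 10.7, 11.1 and 13.7 CPM in male Pkd1KO and at 10.8, 13.3 and 17.3 CPM in male Pkd1KO+ciliaKO mice. All 7 male Pkd1KO mice lay below all 8 noncystic mice. Cables1 fell in male Pkd1KO mice by 0.64 ± 0.11 on the log2 scale (SE, edgeR adjusted p = 0.00298), to 0.64 of the noncystic level, and in male Pkd1KO+ciliaKO mice by 0.46 ± 0.11 (adjusted p = 0.0137), to 0.73 of it. Between the mutant genotypes the difference was -0.17 (interval -0.39 to 0.04, adjusted p = 0.361). Both calls against noncystic mice held without the libraries that stood apart, with adjusted p of 0.00371 and 0.0118, but the second was lost on log2(TPM) values with limma, as given in the closing section.

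In females Cables1 was at 13.8, 23.4 and 28.2 CPM in noncystic, at 12.4, 17.1 and 23.5 CPM in Pkd1KO and at 17.9, 20.3 and 23.8 CPM in Pkd1KO+ciliaKO mice, and the groups overlapped. The log2 difference of Pkd1KO from noncystic females was -0.33 ± 0.14 (unadjusted p = 0.0375, adjusted p = 0.263 by edgeR), and -0.41 (adjusted p = 0.0859) without noncystic replicate 5 and the other libraries that stood apart. That replicate, in which Kif3a went against the label, had the lowest Cables1 of the noncystic females. The difference between the sexes in this comparison was -0.31 (interval -0.67 to 0.05, adjusted p = 0.706). An antisense gene, Gm6277, shares 1314 exonic bases with Cables1, whose exonic length is 3839 bases. Without strand in the counting, fragments that lie within the shared bases cannot be told apart.

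Per length, Cables1 and Cables2 were close to each other in noncystic mice. Of the TPM of both genes together, Cables2 made up 46.1% ± 5.2 (SD, n = 8) in male noncystic, 74.4% ± 2.7 (n = 7) in male Pkd1KO and 58.8% ± 3.8 (n = 9) in male Pkd1KO+ciliaKO mice. In females the share was 44.2% ± 7.6 (n = 7), 67.2% ± 6.1 (n = 8) and 49.3% ± 4.0 (n = 6). The ranges of the Pkd1KO mice (70.05% to 77.7% in males, 57.0% to 78.1% in females) and of the Pkd1KO+ciliaKO mice (53.2% to 65.4% and 43.5% to 53.7%) did not meet in either sex, which follows in part from the choice of Cables2 and is given with no test. Noncystic males (40.7% to 55.5%) also lay below the Pkd1KO males, whereas noncystic females (36.6% to 59.5%) overlapped with the Pkd1KO females.

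The order of the 10 genes by median TPM was the same in noncystic males and females. In males it ran Ccnd1 (104 TPM), Cdk4 (75.2), Cdk5 (43.6), Ccnd3 (26.3), Cables1 (15.01), Cables2 (12.4), Cdk6 (8.62), Cdk2 (6.47), Ccnd2 (4.54) and Ccne1 (0.934). The ranges of the mice overlapped between Ccnd1 and Cdk4 and along the run of neighbours from Cables1 through Cables2, Cdk6 and Cdk2 to Ccnd2, so that only Cdk5, Ccnd3 and Ccne1 were set apart from both neighbours in that order. In male Pkd1KO mice Cables2 (26.8 TPM) stood at place 5, overlapping with Ccnd3 (27.7 TPM), and Cables1 (8.57 TPM) at place 7. Over the 45 mice the highest CPM was 1.38 times the lowest for Cdk5, 1.39 times for Cdk4, 1.55 times for Cdk2, 1.66 times for Ccnd3 and 2.37 times for Cdk6. It was 2.64 times for Cables1, 3.45 times for Ccnd1, 3.51 times for Cables2, 6.80 times for Ccnd2 and 7.24 times for Ccne1.

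**Figure D2:**
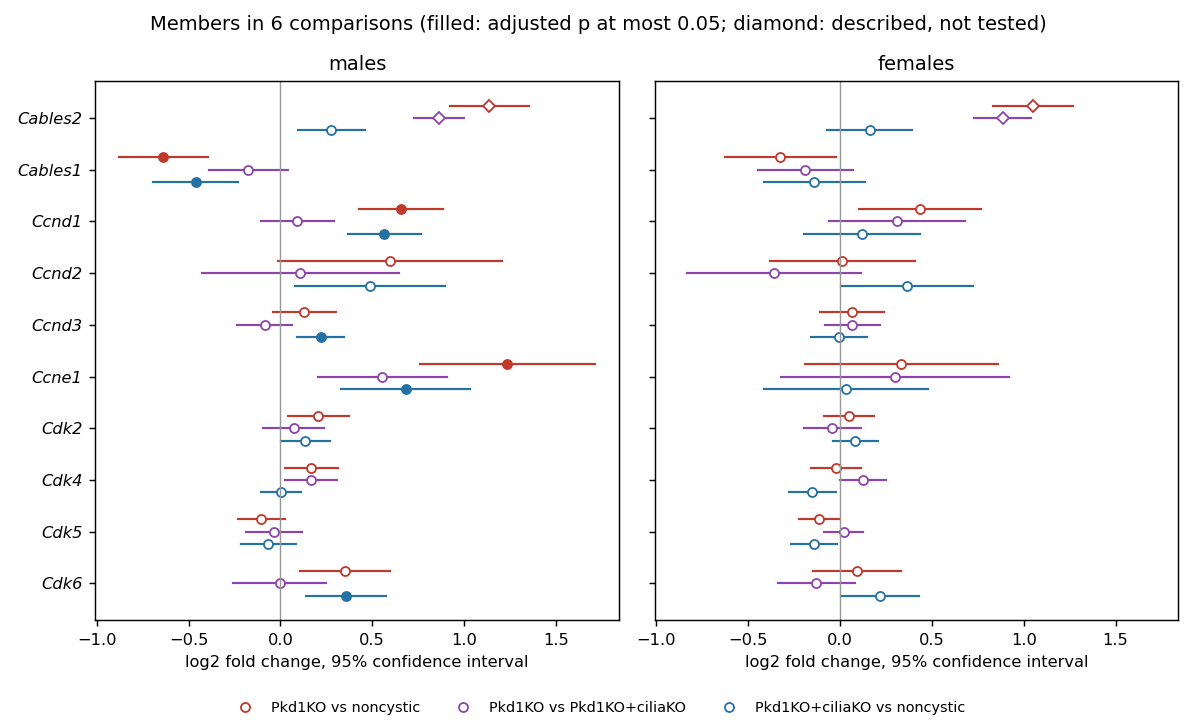
Log2 fold change of the 10 genes (horizontal axis, points with 95% confidence intervals) in the 3 comparisons of genotypes in males and in females; filled points have an adjusted p of at most 0.05, and diamonds mark Cables2 where it is described and not tested. In males 3 of 9 genes pass in Pkd1KO against noncystic mice and 5 of 10 in Pkd1KO+ciliaKO against noncystic mice, and in females none pass. The intervals at the diamonds do not allow for the choice of the list by Cables2.

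In male Pkd1KO against noncystic mice 3 of the 9 genes tested were called, 2 higher (Ccnd1 and Ccne1) and 1 lower (Cables1), where 6.30% of all 15991 genes were called. Of these 9 genes, 3 (Cables1, Ccnd1 and Ccne1) had groups that did not overlap, against 2.11% of all genes. In male Pkd1KO+ciliaKO against noncystic mice 5 of 10 were called, with Ccnd1, Ccne1, Ccnd3 and Cdk6 higher and Cables1 lower, against 8.89% of all genes, and Ccnd1 alone did not overlap, against 1.06%. In male Pkd1KO against Pkd1KO+ciliaKO mice edgeR called 0 of 9, where 3.77% of all genes were called. There 2 of the 9 had an unadjusted p under 0.05 and DESeq2 called 1, Ccne1, and the groups overlapped for all 9, while 1.11% of all genes had groups that did not. The median log2 difference of the 9 genes other than Cables2 was 0.21, 0.07 and 0.22 in male Pkd1KO against noncystic, Pkd1KO against Pkd1KO+ciliaKO and Pkd1KO+ciliaKO against noncystic mice, beside -0.01, 0.01 and 0.01 over all genes tested. The counts without the libraries that stood apart were 3 of 9, 6 of 10 and 0 of 9 for these comparisons in the order of this paragraph.

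In females edgeR called none of the members in Pkd1KO against noncystic, Pkd1KO against Pkd1KO+ciliaKO or Pkd1KO+ciliaKO against noncystic mice (0 of 9, 0 of 9 and 0 of 10), where 3.34%, 11.7% and 2.54% of 15968 genes were called. The members with an unadjusted p under 0.05 numbered 3, 0 and 4, and DESeq2 and limma also called 0 in each. Without the libraries that stood apart edgeR called 0, 0 and 0. The deleted gene Kif3a was itself not called in female Pkd1KO+ciliaKO against noncystic mice (log2 difference -1.16, edgeR adjusted p = 0.0605). Without those libraries its difference was -1.70 (edgeR adjusted p = 1.2e-07), so the lack of calls in the full fit is weak evidence of no change. The groups overlapped for all 9 members other than Cables2 in the first and in the second of these comparisons and for all 10 in the third, while 1.06%, 2.98% and 1.74% of all genes had groups that did not overlap. The difference between male and female fold changes was tested in a fit of the 45 mice, and edgeR called 0 of 9 for Pkd1KO against noncystic and against Pkd1KO+ciliaKO mice, without Cables2, and 0 of 10 for Pkd1KO+ciliaKO against noncystic mice. Of 15828 genes 0.0126%, 0.221% and 0.0316% were called in these tests, and 2, 0 and 2 of the members had an unadjusted p under 0.05. The calls in males and their lack in females are thus not shown to be a difference between the sexes.

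Ccnd1 (cyclin D1, chr7:144929931-144939925, minus strand) was the highest of the 10 genes by median TPM in noncystic mice and rose in both male mutant genotypes. It was at 112, 160 and 176 CPM (lowest, median and highest) in male noncystic, at 205, 242 and 312 CPM in male Pkd1KO and at 190, 229 and 271 CPM in male Pkd1KO+ciliaKO mice. Neither mutant group overlapped with the noncystic mice, and they overlapped with each other over most of their range. The fold over noncystic mice was 1.58 in Pkd1KO (interval 1.35 to 1.84, edgeR adjusted p = 0.00151) and 1.48 in Pkd1KO+ciliaKO mice (1.29 to 1.70, adjusted p = 0.00113), and Pkd1KO over Pkd1KO+ciliaKO mice gave 1.07 (0.93 to 1.22, adjusted p = 0.624). Both calls were kept whichever mouse was left out. In females the values were 149, 195 and 255 CPM in noncystic, 186, 252 and 387 CPM in Pkd1KO and 153, 227 and 270 CPM in Pkd1KO+ciliaKO mice, with overlap throughout, and the fold of Pkd1KO over noncystic mice was 1.35 (1.07 to 1.70, unadjusted p = 0.0131, adjusted p = 0.153 by edgeR).

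Noncystic males had less Ccnd1 than noncystic females, by 0.37 ± 0.12 on the log2 scale (edgeR adjusted p = 0.0281). This was the 1 call among the 10 members in that comparison, where 27.5% of all genes were called. The groups overlapped, and the call was lost without noncystic female replicate 1, 4 or 5 (highest adjusted p = 0.0683) and without the libraries that stood apart together (difference -0.29, adjusted p = 0.0716). LTO1, on the opposite strand, shares 1100 exonic bases with Ccnd1, and it was not called in any comparison of genotypes.

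Ccne1 (cyclin E1, chr7:38097984-38107534, minus strand) was the lowest of the 10 by median TPM and had the largest fold over noncystic mice among the 10 in both male mutant genotypes. It was at 0.433, 0.847 and 1.16 CPM in male noncystic, at 1.28, 1.80 and 3.14 CPM in male Pkd1KO and at 1.08, 1.40 and 1.72 CPM in male Pkd1KO+ciliaKO mice. All male Pkd1KO mice were above all noncystic mice, and their 2 highest values came from replicate 4 (3.14 CPM, one of the libraries that stood apart) and replicate 3 (2.45 CPM). Ccne1 rose 2.35-fold in Pkd1KO (1.69 to 3.28, edgeR adjusted p = 0.00328) and 1.60-fold in Pkd1KO+ciliaKO mice (1.26 to 2.05, adjusted p = 0.0160) against noncystic mice. The direct comparison of both mutants gave 1.47-fold (1.15 to 1.88, unadjusted p = 0.00398), with an adjusted p of 0.0729 that was 0.0386 without Pkd1KO replicate 1 and 0.135 at the highest with another mouse left out. Without the libraries that stood apart the log2 differences were 1.17, 0.69 and 0.47.

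In females Ccne1 was at 0.652, 0.845 and 1.12 CPM in noncystic, at 0.541, 0.876 and 2.04 CPM in Pkd1KO and at 0.574, 0.809 and 1.44 CPM in Pkd1KO+ciliaKO mice. The female Pkd1KO group held both the lowest and the highest of these values, and its median was close to that of the others. The log2 difference of Pkd1KO from noncystic females was 0.33 (interval -0.19 to 0.86, edgeR adjusted p = 0.578). The difference between the sexes was 0.90 for Pkd1KO against noncystic mice (interval 0.26 to 1.54, unadjusted p = 0.00667), and its adjusted p over all genes was 0.359.

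**Figure D3:**
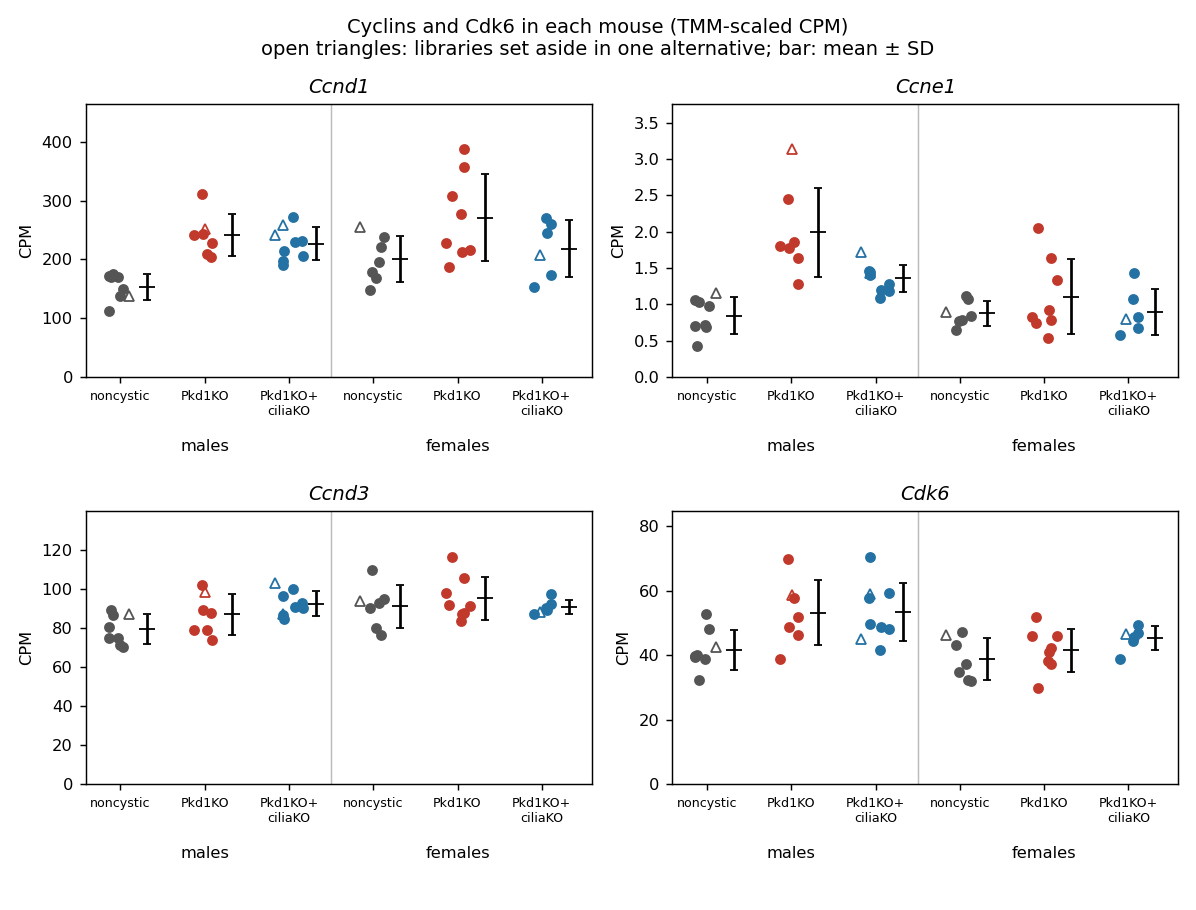
Levels of Ccnd1, Ccne1, Ccnd3 and Cdk6 (vertical axes, TMM-scaled CPM from 0) in each of the 45 mice by genotype and sex. The bar is the mean ± SD, and open triangles are the 6 libraries set aside for Kif3a or for the first principal component. Ccnd1 and Ccne1 of all 7 male Pkd1KO mice lie above all 8 male noncystic mice (highest 176 and 1.16 CPM), while the female groups and the groups of Ccnd3 and Cdk6 overlap.

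Ccnd3 (cyclin D3, chr17:47505051-47599691, plus strand) was at 70.3, 77.7 and 89.2 CPM in male noncystic, at 73.7, 87.8 and 102 CPM in male Pkd1KO and at 84.5, 90.9 and 103 CPM in male Pkd1KO+ciliaKO mice. The groups overlapped in part. It rose 1.16-fold in Pkd1KO+ciliaKO males (1.06 to 1.27, edgeR adjusted p = 0.0319), and the value of Pkd1KO males was 1.09-fold (0.97 to 1.23, adjusted p = 0.369). The call was lost when any 1 of 8 mice was left out, namely noncystic replicate 4, 5, 6 or 7 or Pkd1KO+ciliaKO replicate 1, 3, 5 or 6 (highest adjusted p = 0.0792), and it was kept without the libraries that stood apart (adjusted p = 0.0299). In females the medians were 92.9, 91.5 and 89.8 CPM in noncystic, Pkd1KO and Pkd1KO+ciliaKO mice, with overlap throughout. Bysl, on the opposite strand, shares 361 exonic bases with Ccnd3 and was not called in any comparison of genotypes.

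Ccnd2 (cyclin D2, chr6:127125162-127152193, minus strand) was scattered. It was at 7.99, 15.2 and 22.5 CPM in male noncystic, at 14.8, 17.3 and 54.3 CPM in male Pkd1KO and at 17.3, 19.7 and 33.9 CPM in male Pkd1KO+ciliaKO mice. The 54.3 CPM came from Pkd1KO replicate 4, one of the libraries that stood apart, and the next highest Pkd1KO male had 26.2 CPM. The log2 difference of Pkd1KO from noncystic males was 0.60 (interval -0.01 to 1.21, edgeR adjusted p = 0.236) and 0.33 (adjusted p = 0.415) without those libraries. In females it was at 12.3, 16.7 and 20.1 CPM in noncystic, at 9.51, 14.2 and 25.6 CPM in Pkd1KO and at 12.2, 20.2 and 30.6 CPM in Pkd1KO+ciliaKO mice. None of its 6 comparisons passed by edgeR, and 2 had an unadjusted p under 0.05, both of Pkd1KO+ciliaKO against noncystic mice (0.0214 in males and 0.0484 in females).

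Of the D-type cyclins, Ccnd1 made up most of the TPM in every group and more of it in mutant males. Its share of the TPM of the 3 genes was 75.0% ± 2.7 (SD, n = 8) in male noncystic, 80.5% ± 2.5 (n = 7) in male Pkd1KO and 78.8% ± 1.7 (n = 9) in male Pkd1KO+ciliaKO mice. By an exact two-sided permutation test the difference from noncystic mice was 5.50 percentage points in Pkd1KO males (p = 0.00218, adjusted over 12 tests p = 0.0138) and 3.75 points in Pkd1KO+ciliaKO males (exact p = 0.00230, adjusted p = 0.0138). The groups overlapped between 75.8% and 78.6%. Without the libraries that stood apart the first was 5.601 points (exact test, adjusted p = 0.0140) and the second 2.81 points (exact test, adjusted p = 0.0676), past the threshold no longer. In females the share was 77.5% ± 3.9 (n = 7), 81.4% ± 4.0 (n = 8) and 78.1% ± 4.1 (n = 6) in noncystic, Pkd1KO and Pkd1KO+ciliaKO mice, and the difference of 3.92 points between the first of these groups had an adjusted exact p of 0.168. The summed TPM of the D-type cyclins was 130 ± 18 in male noncystic, 189 ± 40 in male Pkd1KO and 197 ± 35 in male Pkd1KO+ciliaKO mice. These sums carry no TMM scaling and are a description. The deposited TPM of a male mouse added up to between 727843 (Pkd1KO replicate 2) and 944641 (Pkd1KO+ciliaKO replicate 7).

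Of the kinases, 1 was called in a comparison of genotypes. Cdk6 (chr5:3341485-3531008, plus strand), a partner of the D-type cyclins, was at 32.5, 39.9 and 52.8 CPM in male noncystic, at 38.8, 51.9 and 69.8 CPM in male Pkd1KO and at 41.7, 49.8 and 70.6 CPM in male Pkd1KO+ciliaKO mice, with overlap among the groups. It rose 1.28-fold in Pkd1KO+ciliaKO males (1.10 to 1.49, edgeR adjusted p = 0.0389), and in Pkd1KO males the fold was 1.27 (1.08 to 1.51, adjusted p = 0.0842). The first was lost when any 1 of 10 of the 17 mice was left out (noncystic replicate 1, 2, 5, 6 or 8, or Pkd1KO+ciliaKO replicate 2, 5, 7, 8 or 9, highest adjusted p = 0.0927), and the second passed without Pkd1KO replicate 2 (adjusted p = 0.0285). In females Cdk6 had medians of 37.3, 41.6 and 46.2 CPM in noncystic, Pkd1KO and Pkd1KO+ciliaKO mice, and the difference between the outer groups was 0.22 on the log2 scale (unadjusted p = 0.0466, adjusted p = 0.226).

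Cdk4 (chr10:127063534-127067920, plus strand), the other partner of the D-type cyclins, was at 75.2, 81.8 and 89.1 CPM in male noncystic, at 81.5, 86.2 and 104 CPM in male Pkd1KO and at 75.6, 81.3 and 90.9 CPM in male Pkd1KO+ciliaKO mice. Pkd1KO males were 0.17 higher on the log2 scale than either other group (intervals 0.02 to 0.31 and 0.03 to 0.31), with adjusted p of 0.160 and 0.173 by edgeR. In females Cdk4 differed by -0.15 in Pkd1KO+ciliaKO against noncystic mice (interval -0.28 to -0.02, adjusted p = 0.160). Tspan31 overlaps its 3′ end on the opposite strand by 641 exonic bases and was not called in any comparison of genotypes. Cdk4 made up 86.8% to 91.0% of the TPM of Cdk4 and Cdk6 on average in the 6 groups. In Pkd1KO+ciliaKO against noncystic mice this share was 2.56 points lower in males and 2.23 points lower in females, with adjusted p of 0.0773 and 0.107 by the exact permutation test.

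Cdk2 (chr10:128697939-128705031, minus strand), the partner of cyclin E, was at 12.1, 13.6 and 14.9 CPM in male noncystic, at 13.4, 15.8 and 18.8 CPM in male Pkd1KO and at 12.5, 15.1 and 16.7 CPM in male Pkd1KO+ciliaKO mice. Of the 7 Pkd1KO males 5 lay above all noncystic males, and the log2 difference was 0.21 (interval 0.04 to 0.37, unadjusted p = 0.0177, edgeR adjusted p = 0.131). In females it was at 13.1 to 17.9 CPM, with no comparison past the threshold. Cdk5 (chr5:24418241-24423530, minus strand) was at 27.9, 31.7 and 35.1 CPM in male noncystic, at 25.9, 29.4 and 32.4 CPM in male Pkd1KO and at 25.9, 30.9 and 35.5 CPM in male Pkd1KO+ciliaKO mice. Its log2 difference between Pkd1KO and noncystic mice was -0.10 in males (interval -0.23 to 0.03, adjusted p = 0.347) and -0.12 in females (interval -0.23 to -0.0040, adjusted p = 0.282).

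The relation of Cables2 to each of the other members among mice of the same genotype and sex was examined after the mean of each of the 6 groups had been subtracted from log2(CPM + 0.1). Of the 9 relations 1 passed. Ccnd3 was higher in mice with more Cables2 (Pearson's r = 0.50, permutation p = 0.00268, adjusted over the 9 relations p = 0.0241; Spearman's rho = 0.52, permutation p = 0.000930, adjusted p = 0.00837; 45 mice). The r was 0.54 without the 2 mice farthest from the median of Cables2. It was 0.51 in the 24 males alone and 0.49 in the 21 females alone, with adjusted permutation p of 0.193 and 0.550, and 0.46 (adjusted permutation p = 0.159) without the libraries that stood apart. For the other 8 genes r lay between -0.27 (Cdk4, adjusted permutation p = 0.448) and 0.16 (Cdk2, adjusted permutation p = 0.578).

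**Figure D4:**
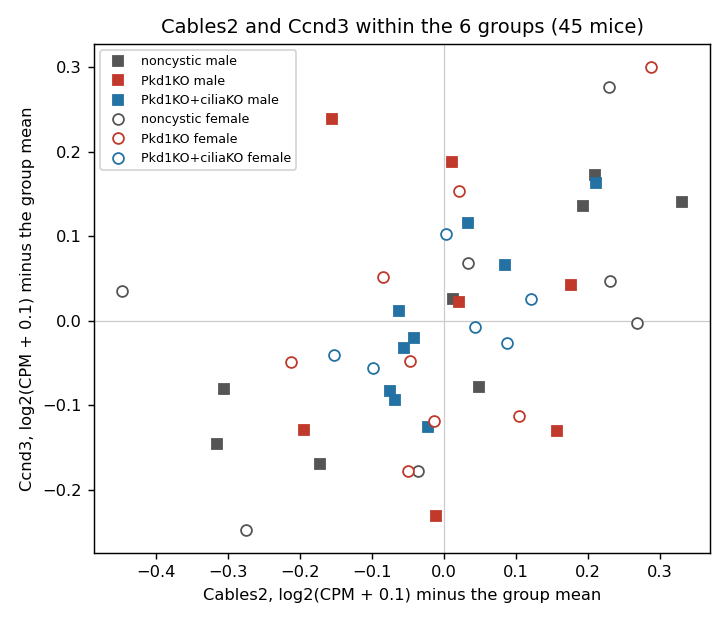
Ccnd3 (vertical axis) against Cables2 (horizontal axis) in the 45 mice, both as log2(CPM + 0.1) minus the mean of the mouse's group of genotype and sex; 1 point is 1 mouse. Mice with more Cables2 than their group had more Ccnd3 (r = 0.50), in males (r = 0.51) and in females (r = 0.49).

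The other genes of the pathway were taken from 6 lists of 55 genes in the tables that hold no member. In males 53 of them were tested, and 18 rose in Pkd1KO against noncystic mice and none fell, where 4.05% of all genes tested were called higher. In Pkd1KO+ciliaKO against noncystic males 14 rose and none fell, where 5.63% of all genes were called higher. Between the mutant males edgeR called 0 of 53, and DESeq2 called 8. Without the libraries that stood apart these counts were 18, 15 and 1. In females 52 were tested. Of these 4 rose in Pkd1KO against noncystic mice, where 3.34% of all genes were called in either direction. In Pkd1KO against Pkd1KO+ciliaKO females 5 were called, 3 higher and 2 lower, where 11.7% of all genes were called, and in Pkd1KO+ciliaKO against noncystic females 0 were called, where 2.54% of all genes were. Without the libraries that stood apart the counts in females were 2, 3 and 0.

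The S phase and proliferation list held 8 of the 18 genes that rose in Pkd1KO males. Mki67, which encodes the proliferation antigen Ki-67, rose by 1.83 ± 0.29 on the log2 scale (adjusted p = 0.00139), and Top2a, a topoisomerase of dividing cells, by 1.60 ± 0.27 (adjusted p = 0.00172). Rrm2, a subunit of ribonucleotide reductase, rose by 1.49 ± 0.21, and the replicative helicase genes Mcm3, Mcm5, Mcm6 and Mcm7 by 0.47 to 1.13. The summed level of the 10 genes was 155 to 228 CPM in male noncystic mice (median 190), 241 to 593 CPM in male Pkd1KO mice (median 312) and 204 to 328 CPM in male Pkd1KO+ciliaKO mice (median 245), and the highest was that of Pkd1KO replicate 4. In Pkd1KO+ciliaKO males 5 of the 10 rose, Mki67 by 1.00 ± 0.21 and Top2a by 0.96 ± 0.20 among them. Between the mutant males none of the 10 was called, but 8 had an unadjusted p under 0.05 by edgeR. The median log2 difference of the 10 was 0.46, higher in Pkd1KO males. In each of the other lists 0 to 5 genes had such a p in this comparison. In Pkd1KO females Mki67 rose by 0.66 ± 0.17 (adjusted p = 0.0423), Rrm2 by 0.58 ± 0.16 (adjusted p = 0.0480) and Mcm6 by 0.54 ± 0.09 (adjusted p = 0.00309) against noncystic mice. There 9 of the 10 had an unadjusted p under 0.05 by edgeR, with a median log2 difference of 0.56.

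Among partners downstream of the G1 kinases, 4 of 13 pocket protein and E2F genes rose in Pkd1KO males. E2f1, which activates S phase genes, rose by 1.25 ± 0.19 (adjusted p = 0.00103) and E2f8, an atypical E2F that represses them, by 1.93 ± 0.29 (adjusted p = 0.00103), with Rbl1 (p107) at 0.34 and Tfdp1 at 0.33. Ccna2 (cyclin A2), its kinase Cdk1 and the phosphatase gene Cdc25c were 3 of 10 genes called among the other cyclins, kinases and phosphatases, at 1.97 ± 0.29, 1.93 ± 0.28 and 1.74 ± 0.33. Of the inhibitors of cyclin-dependent kinases 2 of 6 rose, Cdkn1a (p21) by 1.29 ± 0.29 (adjusted p = 0.0127) and Cdkn2c (p18) by 0.54 ± 0.12 (adjusted p = 0.00935). Of the 9 genes of cyclin and inhibitor turnover Cks1b rose by 0.82 ± 0.17. In Pkd1KO+ciliaKO males Cdkn1a rose by 1.05 ± 0.20, E2f1 by 0.57 ± 0.13 and Ccna2 by 1.05 ± 0.24, and Ccna1, a cyclin best known from germ cells, by 2.20 ± 0.61.

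In females the pocket protein and E2F genes held 1 call in Pkd1KO against noncystic mice, Rbl2 (p130), at 0.28 ± 0.06 higher (adjusted p = 0.0184). Against Pkd1KO+ciliaKO mice the Pkd1KO females had more Tfdp1, Mcm5 and Mcm6, by 0.38 to 0.84, and less E2f3 and Tfdp2, by -0.46 and -0.33. Of the partners of the Cables proteins, Abl1, Cdk5r1, Trp53, Trp73 and Wee1 were tested in both sexes and Cdk5r2 did not pass the filter. None of the 5 was called in any of the 6 comparisons of genotypes by edgeR, and their log2 differences lay between -0.50 (Cdk5r1) and 0.37 (Cdk5r1).

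**Figure D5:**
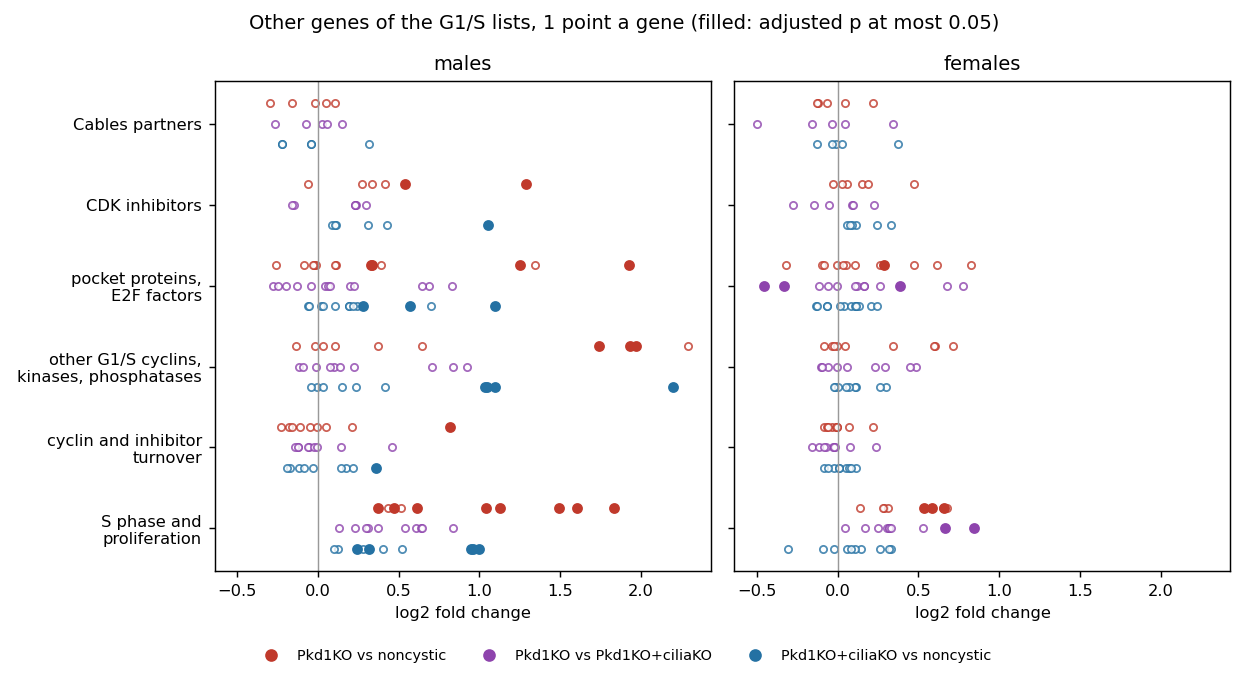
Log2 fold change (horizontal axis) of the other genes of the 6 pathway lists, 1 point a gene and 1 row a list, in the 3 comparisons of genotypes in males and in females; filled points have an adjusted p of at most 0.05. In male Pkd1KO against noncystic mice 18 of 53 genes are filled and all of them lie to the right of 0, and between the mutant males none is filled.

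Markers of other cells moved with the same comparison. In Pkd1KO against noncystic males 2 of the 8 macrophage markers were called higher (Csf1r and Lyz2), and the summed level of the 8 was 73 to 105 CPM in noncystic, 99.9 to 427 CPM in Pkd1KO and 59.7 to 110 CPM in Pkd1KO+ciliaKO males, with none of the 8 at 0. All 8 had an unadjusted p under 0.05. The highest sum was that of Pkd1KO replicate 4, the mouse with the highest Ccne1, Ccnd2 and S phase levels. Of the T cell markers 1 of 6 tested was called (Lck), with sums of 3.18 to 10.4 CPM in noncystic, 4.17 to 22.6 CPM in Pkd1KO and 7.05 to 8.82 CPM in Pkd1KO+ciliaKO males. All 6 had an unadjusted p under 0.05 by edgeR in Pkd1KO against noncystic males. Of 7 proximal tubule markers 1 was lower in Pkd1KO males (Cubn) and 4 were lower in Pkd1KO+ciliaKO males, whose sums were 4578 to 10128 and 5694 to 8723 CPM against 6985 to 11063 CPM in noncystic males. The part of these cells in the levels of the members was not tested, and in these bulk libraries fewer cells of a type and less RNA per cell cannot be told apart. The calls of Ccnd1, Ccne1 and Cables1 in male Pkd1KO mice held without replicate 4 and without all libraries that stood apart. Leaving these out does not separate the part of other cells. The median macrophage sum was 91.4 CPM in noncystic and 117 CPM in Pkd1KO males, and the median T cell sum 6.05 and 6.06 CPM. Taken gene by gene, the median log2 difference between these groups was 1.77 over the 8 macrophage markers and 1.64 over the 6 T cell markers.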

How the data were processed

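Ribosome-bound RNA of tagged tubule cells was sequenced from kidneys of 45 mice. Per the study's methods, rRNA was depleted, reads were trimmed with fastp 0.20.0 and aligned with STAR 2.7.9 to GRCm38.p6, and genes were counted with featureCounts 2.0.0; options for strand and for reads with several matches were not given in the sources used here. The authors deposited raw counts per gene for 55401 genes and, per sex, TPM values of genes with at least 6 counts in 20% of the mice. No column was left unmapped (0).

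Counts were fitted with edgeR 4.0.16 in R 4.3.3 (TMM scaling, quasi-likelihood test, Benjamini-Hochberg adjustment, threshold 0.05), each pair of genotypes within a sex alone, over the protein-coding genes of the deposited TPM table of that sex. DESeq2 1.42.0 and limma 3.58.1 on log2(TPM + 1) and log2(TPM + 0.1) were alternatives. So were a single fit of the 3 genotypes of a sex, leaving out each mouse and a replicate block. The fits were tested on simulated data. Shares were compared by exact permutation tests and correlations with 100000 permutations (scipy 1.17.1). Symbols and coordinates came from GENCODE vM21 on GRCm38 and promoter sequences from RefSeq. The genes named are the 10 members, the targeted genes, genes of the pathway lists past the threshold and the 5 genes most like Cables2. Partners of the Cables proteins, some cell markers, the neighbours of Cables2 and some genes that overlap a member are named too. The members and lists were chosen with earlier results of these data known. The labels give each sample as 1 mouse, and all 149 pairs of replicates differed by more than sampling noise (the smallest chi-square was 52.0 per degree of freedom). Depth was 80874556 to 132958186 counts per mouse, and floors cover counting error only.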

Additional observations from a re-analysis of the deposited data

Results flagged for a closer look

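Among 72 groups of values of the members and their shares that were tested for a mouse far from the others, 2 were picked out, where chance picks about 1 in 20 (3.6 of 72). Ccnd2 in male Pkd1KO replicate 4 was at 54.3 CPM, the next highest mouse of the group being at 26.2 CPM, and this gap was 0.711 of the range of the group, past the critical value of Dixon's test for 7 mice. The share of Cdk4 in the TPM of Cdk4 and Cdk6 was 91.9% in male Pkd1KO replicate 2, the next being 88.4%, a gap of 0.603 of the range. No difference between the sexes in the fold change of a member passed its test.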

How the results depend on the processing

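The calls of Ccnd1, Ccne1 and Cables1 in male Pkd1KO against noncystic mice were kept whichever of the 15 mice was left out. The counts of members called were 3 to 4 there with 1 mouse left out, 0 to 1 in male Pkd1KO against Pkd1KO+ciliaKO, 3 to 6 in male Pkd1KO+ciliaKO against noncystic, 0 to 2 between noncystic males and females and 0 to 0 in the 3 female comparisons. DESeq2 called 1 member in male Pkd1KO against Pkd1KO+ciliaKO mice and 2 between noncystic males and females, and limma on log2(TPM + 1) called 3 in male Pkd1KO+ciliaKO against noncystic mice, where Cables1 was lost (adjusted p = 0.126, and 0.116 with log2(TPM + 0.1)). Cdk6 and Ccnd3 were lost there in the single fit of the 3 genotypes of a sex (adjusted p = 0.056 and 0.054), and Cables2 was gained by DESeq2 (0.030) and in that fit (0.041). The causes were not tested.

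Of all genes, DESeq2 called 962 and 1280 in females (Pkd1KO and Pkd1KO+ciliaKO against noncystic) and 1640, 1234 and 2157 in males (Pkd1KO against noncystic, against Pkd1KO+ciliaKO, and Pkd1KO+ciliaKO against noncystic). With log2(TPM + 0.1) and log2(TPM + 1) limma called 669 and 625 in male Pkd1KO against noncystic and 1007 and 1000 in female Pkd1KO+ciliaKO against noncystic mice. The split of higher and lower calls moved from 648 and 360 to 262 and 363 (log2(TPM + 1)) in male Pkd1KO against noncystic, from 318 and 285 to 159 and 408 in male Pkd1KO against Pkd1KO+ciliaKO, from 1126 and 743 to 584 and 1583 in the same female comparison and from 107 and 298 to 875 and 125 in female Pkd1KO+ciliaKO against noncystic mice. The single fit called 929 in male Pkd1KO against Pkd1KO+ciliaKO mice. Without the 6 libraries 926 genes were called in female and 2240 (1133 higher, 1107 lower, from 901 and 521) in male Pkd1KO+ciliaKO against noncystic mice. With 1 mouse left out the counts were 349 to 676, 1241 to 2084 and 8 to 746 in females and 742 to 1155, 403 to 630 and 965 to 2359 in males, for Pkd1KO against noncystic, against Pkd1KO+ciliaKO and Pkd1KO+ciliaKO against noncystic.

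Of the pathway genes, DESeq2 called 11 in female Pkd1KO against noncystic and 8 in male Pkd1KO against Pkd1KO+ciliaKO mice, limma 2 and 2 in female Pkd1KO+ciliaKO against noncystic mice, and the single fit 6 in male Pkd1KO against Pkd1KO+ciliaKO mice. Without the 6 libraries the counts were 2 and 3 in female Pkd1KO against noncystic and Pkd1KO+ciliaKO mice and 1 in male Pkd1KO against Pkd1KO+ciliaKO mice. With 1 mouse left out they were 2 to 10, 3 to 6 and 0 to 0 in females and 16 to 21, 0 to 4 and 12 to 16 in males. The share of Ccnd1 in male Pkd1KO+ciliaKO against noncystic mice was 2.81 points without the 6 libraries. The correlation of Cables2 with Ccnd3 was 0.51 in males, 0.49 in females and 0.46 without the 6 libraries. That with Cables1 turned to 0.21 in males and 0.049 without the 6 libraries, that with Ccnd1 to -0.10 in males and that with Ccne1 to -0.048 without the 6 libraries.

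The replicate numbers did not pair the mice: same-numbered mice correlated between -0.33 and 0.36. With a replicate block the members called were 0 between noncystic males and females and 2 in male Pkd1KO+ciliaKO against noncystic mice, all genes called 294, 612 and 100 in females and 170 and 764 in male Pkd1KO against Pkd1KO+ciliaKO and Pkd1KO+ciliaKO against noncystic mice, and pathway genes 1 and 1 in female Pkd1KO against noncystic and Pkd1KO+ciliaKO mice and 1 and 8 in those male comparisons.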
